A study of Ptychidio jordani with 7 samples.

Results

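A group of 10 genes known for their work in eggs and germ cells was followed across 7 tissues of Ptychidio jordani, the ratmouth barbel, which is a carp relative of fresh waters. They were taken by name from the deposited expression table: zar1, wee2, BMP15, GDF9, LHX8, FIGLA, Nobox, DDX4, dazl and piwil1. The 10 names gave 12 of the table's 26107 genes, because zar1 and LHX8 each name 2 of them. Gill, caudal fin, heart, muscle, spleen, liver and kidney were each sequenced as 1 library, and the libraries accompany an assembly of the species' genome. The labels call every library normal and give no treatment, strain, age or sex, nor the number of fish behind a library. Ovary and testis were not analysed here.

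A growing oocyte stocks messenger RNA and protein for the embryo, and a small set of factors runs this programme. In mouse, the transcription factors FIGLA, NOBOX and LHX8 switch on oocyte genes, among them those of the egg coat. BMP15 and GDF9 are growth factors that the oocyte secretes to the follicle cells around it, WEE2 holds it in meiotic arrest by inhibiting CDK1, and ZAR1 binds stored messenger RNA. DDX4 (vasa), DAZL and PIWIL1 are germ line proteins of RNA granules, RNA translation and transposon silencing, and are used as germ cell markers in zebrafish.

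Levels are in FPKM, fragments per kilobase of transcript scaled to the mapped fragments of a library, so that genes can be compared per length. With 1 library per tissue no difference has a replicate check, no spread between fish is known and no p-value is given. Read totals are not in the table, which leaves the depth and its counting error unknown. For the sample from spleen the term used is the library labelled spleen, because hepatocyte genes led it: FGB, a fibrinogen chain, was 11947 there, 10019 in liver and at most 0.42 elsewhere. The library labelled muscle did hold skeletal muscle genes, with acta1 (skeletal actin) at 6707, and the kidney library held tubule genes, with slc22a6 (an organic anion transporter) at 116. Between 8816 genes, in liver, and 16811, in fin, had an FPKM of 1 or more. Factors that would bring the libraries to a common median, by median-of-ratios scaling, were 0.65 in muscle, 1.05 in kidney and 0.76 in fin on the log2 scale. They were 0.63 in gill, -0.35 in heart, -1.13 for the library labelled spleen and, lowest, -1.89 in liver. Levels and orders below are as deposited unless another scaling is named.

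Nearly all of the oocyte and germ line genes were highest in muscle, next in kidney, far lower in fin, and near the bottom of the scale in liver and gill. Of the 12 genes, 11 reached an FPKM of at least 1 in some library, and these 11 were each higher in both muscle and kidney than in any of the other 5 libraries, as deposited, after median-of-ratios scaling and after scaling to a common sum. Among all 21151 genes that reached an FPKM of 1, 33.8% had this order as deposited. The share was 24.2% after median-of-ratios scaling and 32.5% after scaling to a common sum. Muscle was the highest library for 9 of the 12 and for 25.6% of all detected genes, and kidney for 2 and for 17.0%. Both counts moved with scaling, which put all 11 highest in muscle. The share of all genes highest in muscle after scaling was not counted. As deposited, gill was highest for 4892 of all 21151 detected genes, fin for 3896 and heart for 2103. The library labelled spleen was highest for 943 of them and liver for 316. Summed over the 12 genes, the FPKM was 2942 in muscle and 1748 in kidney. In fin it was 334, in heart 80.4, in liver 22.6, in gill 8.16 and in the library labelled spleen 156.

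**Figure D1:**
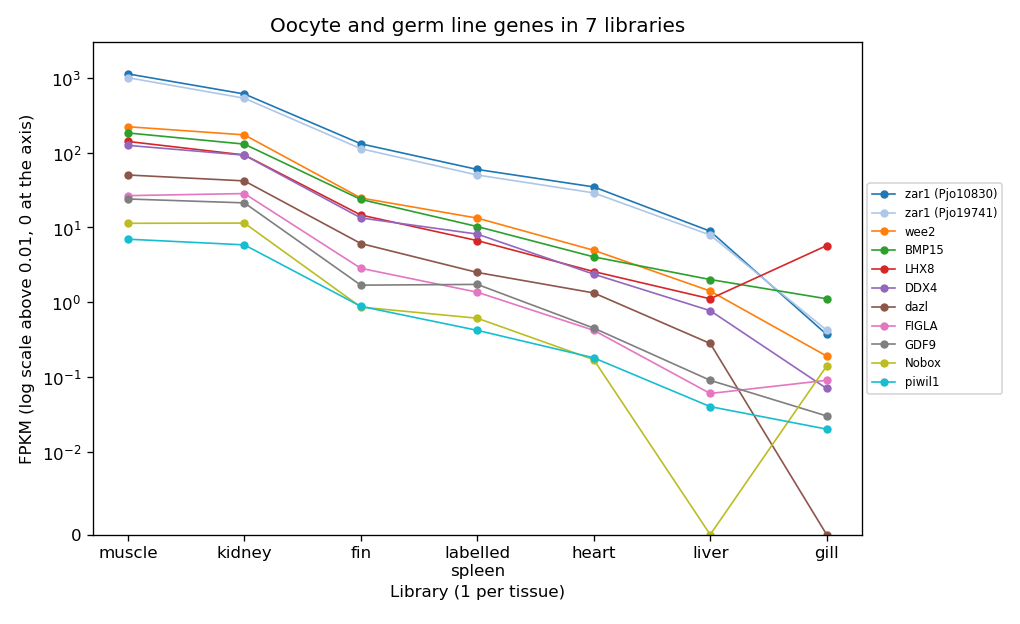
FPKM (log scale above 0.01, with values listed at 0 on the axis) of the 11 oocyte and germ line genes that reached an FPKM of at least 1, in 7 libraries of 1 tissue each; lines join the values of 1 gene. Levels run from 6.97 (piwil1) to 1137 (zar1) in muscle, step down together to liver, and spread out in gill, where LHX8 is at 5.72.

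The most abundant of them was zar1, the gene of the RNA-binding zygote arrest protein. The copy Pjo10830 was at an FPKM of 1137 in muscle, 612 in kidney, 132 in fin, 34.9 in heart, 8.91 in liver, 0.37 in gill and 59.8 in the library labelled spleen. The copy Pjo19741 was at 1011 in muscle, 537 in kidney, 113 in fin, 29.0 in heart, 7.92 in liver, 0.42 in gill and 50.4 in the library labelled spleen. The copies kept nearly the same proportions from library to library, although the estimation may divide reads between close copies and each value is uncertain for that reason. Their kidney levels were 53.8% and 53.1% of those in muscle, the lowest such shares among the 11 detected genes.

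The oocyte kinase gene wee2 (Pjo18237) was at an FPKM of 223 in muscle, 174 in kidney, 24.8 in fin, 4.95 in heart, 1.41 in liver, 0.19 in gill and 13.4 in the library labelled spleen. Its order of libraries was that of zar1. Genes on which the WEE2 kinase acts or that work around it were described by a list of 11 names, which found 9 genes. Of these, 7 were highest in muscle, 1 in kidney and 1 in gill, while 25.6% of all detected genes were highest in muscle. ccnb1 (Pjo04975), a cyclin B that pairs with CDK1, was 1191 in muscle, 712 in kidney and 2.93 in gill. A second CCNB1 gene (Pjo18486) was 407 in muscle and 257 in kidney. ccnb2 (Pjo07891), another B cyclin, was 477 and 325, and the mitotic kinase gene plk1 (Pjo01007) 223 and 163. The kinase gene cdk1 (Pjo17281), the direct target of WEE2, was 181 in muscle, 121 in kidney and 7.40 in gill, and it is active in any dividing cell. Pkmyt1 (Pjo12834), another inhibitory CDK1 kinase, was 9.67 in muscle and 11.3 in kidney as deposited, an order that median-of-ratios scaling turns.

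Among the secreted growth factors, BMP15 was several times as abundant as GDF9. BMP15 (Pjo07570) was at an FPKM of 184 in muscle, 131 in kidney, 23.7 in fin, 4.04 in heart, 2.01 in liver, 1.11 in gill and 10.3 in the library labelled spleen. GDF9 (Pjo14091) was at 24.1 in muscle, 21.3 in kidney, 1.69 in fin, 0.45 in heart, 0.09 in liver, 0.03 in gill and 1.73 in the library labelled spleen. GDF9 was the one detected gene of the 11 that was not higher in fin than in the library labelled spleen as deposited. After median-of-ratios scaling none of the 11 was higher in fin, so the places of these libraries in the order depend on the scaling. Heart was above liver for all 11 as deposited and for 9 after that scaling, and liver above gill for 8 and for 10. Among all detected genes as deposited, fin was above the library labelled spleen for 86.6% and heart above liver for 75.5%. Those 2 steps are thus common in these libraries, while liver was above gill for 12.7% of all detected genes. The shares of all genes after scaling were not counted for these steps.

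The receptors and SMAD proteins through which BMP15 and GDF9 signal had no common library of highest level. The list of 12 names found 21 genes, all detected, of which 10 were highest in gill, 4 in muscle, 4 in kidney, 2 in fin and 1 in heart. Gill was the highest library for 23.1% and muscle for 25.6% of all detected genes. After median-of-ratios scaling 6 of the 21 were highest in gill, 5 in muscle and none in kidney. Smad7 (Pjo21490), an inhibitor of the pathway, was 140 in gill and 4.56 in muscle. SMAD3 (Pjo07832), a signal transducer, was 41.0 in gill, 7.11 in muscle and 11.7 in kidney. The type I receptor gene Acvr1b (Pjo22897) was 34.8 in fin, 21.0 in muscle and 19.9 in kidney. The type II receptor gene Bmpr2 (Pjo09876) was 31.6 in gill and below 1 in muscle and kidney, at 0.95 and 0.90.

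Of the transcription factors, LHX8 was the most abundant and Nobox the least. The LHX8 gene Pjo01485 was at an FPKM of 142 in muscle, 93.4 in kidney, 14.7 in fin, 2.57 in heart, 1.11 in liver, 5.72 in gill and 6.67 in the library labelled spleen. It stood out in gill, where its level was 4.04% of that in muscle, while the other 9 genes at 10 or more in muscle were at 1.23% or below. A second gene named LHX8 (Pjo09250) was at 0.30 in the library labelled spleen and listed at 0 in the other 6, so it did not count as detected.

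FIGLA (Pjo05925), a helix-loop-helix factor named for the germ line, was at an FPKM of 26.7 in muscle, 28.5 in kidney, 2.84 in fin, 0.42 in heart, 0.06 in liver, 0.09 in gill and 1.36 in the library labelled spleen. Nobox (Pjo19584), a homeobox factor, was at 11.4 in muscle, 11.5 in kidney, 0.86 in fin, 0.17 in heart, 0.14 in gill and 0.61 in the library labelled spleen, and was listed at 0 in liver. These were the genes with the highest kidney shares, at 107% and 101% of muscle as deposited. After median-of-ratios scaling the shares were 80.8% and 76.2%, and after scaling to a common sum 97.9% and 92.5%, so that muscle was then the higher library for both.

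The germ line markers showed much the same steps. DDX4 (Pjo11286), the vasa helicase gene, was at an FPKM of 126 in muscle, 92.9 in kidney, 13.4 in fin, 2.37 in heart, 0.77 in liver, 0.07 in gill and 8.15 in the library labelled spleen. The RNA-binding gene dazl (Pjo19069) was at 50.4 in muscle, 42.0 in kidney, 6.10 in fin, 1.33 in heart and 0.28 in liver. It was 2.50 in the library labelled spleen and listed at 0 in gill. The argonaute gene piwil1 (Pjo08889) was at 6.97 in muscle, 5.85 in kidney, 0.88 in fin, 0.18 in heart, 0.04 in liver, 0.02 in gill and 0.42 in the library labelled spleen. It was the only detected gene of the 11 that stayed below 10 in every library.

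The steps between libraries were alike from gene to gene, although the levels in muscle of the 10 genes at an FPKM of 10 or more ran from 11.4 to 1137. Fin was between 7.02% and 12.9% of muscle for these genes, with a median of 10.9%. The library labelled spleen was between 4.71% and 7.19%, with a median of 5.31%, and heart between 1.5% and 3.07%, with a median of 2.04%. Liver was at most 1.09% and gill at most 4.04%, the LHX8 value, with medians of 0.62% and 0.10%. After median-of-ratios scaling the medians were 18.2% in the library labelled spleen, 4.09% in heart and 3.63% in liver, while those in fin and gill were 10.1% and 0.11%. At low levels a value printed to 2 decimals is coarse. In a whole tissue, fewer cells of a type and less RNA per cell cannot be told apart.

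The egg coat list gave nearly the same shares. It found 41 genes named ZP2, ZP3 or ZP4, of which 40 were highest in muscle and at 10 or more there. The other, a ZP3 gene (Pjo16996), was highest in kidney, at 11.8, with 0.39 in fin and a listed 0 in muscle. Among all detected genes 25.6% were highest in muscle. Over those 40 genes the median level was 10.6% of muscle in fin, 2.67% in heart, 0.78% in liver, 0.04% in gill and 5.07% in the library labelled spleen. A ZP4 gene (Pjo19173) stood apart in heart, at 20.3% of muscle. In kidney the egg coat median was 58.8% and that of the 10 oocyte and germ line genes 75.9%. The summed egg coat FPKM was 75628 in muscle, 42874 in kidney and 37.6 in gill. The highest genes of this list were a ZP3 gene outside the named annotation at 9431 in muscle and 5029 in kidney, 2 ZP4 genes (Pjo20597 and Pjo20598) at 7937 and 6840 in muscle, and another ZP3 gene (Pjo16995) at 6278. The origin of these transcripts in each library was not tested.

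**Figure D2:**
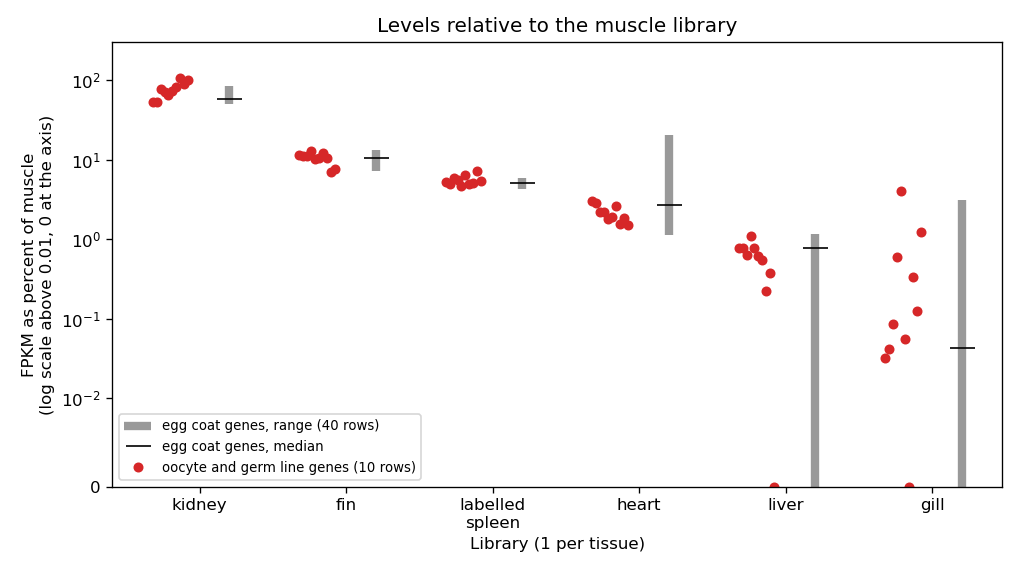
FPKM in 6 libraries as a percent of the FPKM of the same gene in muscle (log scale above 0.01, 0 on the axis). Red points are the 10 oocyte and germ line genes at an FPKM of 10 or more, grey bars the range and black marks the median of 40 egg coat genes; both sets lie near 11% in fin and near 5% in the library labelled spleen, and they scatter most in gill.

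Muscle and kidney were within 2-fold of each other for these genes as deposited, as they were for most detected genes. The log2 ratio of muscle over kidney, on the FPKM + 1 scale, ran from -0.09 for FIGLA to 0.91 for zar1, with a median of 0.31 over all 12 genes, 0.36 over the 11 detected and -0.05 over all detected genes. As deposited none of the 12 differed by 2-fold between these libraries, while 4.21% of all detected genes were at least 2 times higher in muscle and 12.4% at least 2 times higher in kidney. A difference below 2-fold was thus common and does not set these genes apart. The second LHX8 gene, listed at 0 in both libraries, could not differ. After median-of-ratios scaling or scaling to a common sum, both zar1 genes were at least 2 times higher in muscle. Median-of-ratios scaling would raise every log2 ratio of muscle over kidney by 0.40 before the pseudocount, and a common sum by 0.12. The same libraries differed widely in skeletal muscle markers and in most tubule markers: the 23 genes of the muscle list summed to 36081 in muscle and 9.09 in kidney, and acta1 was 0.12 in kidney. The 2 creatine kinase genes CKM (Pjo05440 and Pjo15297) were 7155 and 5878 in muscle, 5885 and 4760.4 in heart and 1.89 and 0.34 in kidney, and the fast troponin gene TNNI2 (Pjo24475) was 4619 in muscle and 0.11 in kidney. The highest kidney marker, the amino acid carrier gene Slc6a13 (Pjo18630), was 278 in kidney and 8.70 in muscle, slc22a6 116 and 3.28, and PDZK1, a scaffold of tubule transporters, 104 and 3.50. SLC12A3 (Pjo08455), a salt carrier that is second in that list, was highest in gill, at 240.3 against 28.2 in kidney. The kidney list summed to 840.5 in kidney and 135 in muscle over 27 genes. Of these, 13 of the 21 detected were highest in kidney, against 17.0% of all detected genes. LRP2 (Pjo11343), an uptake receptor, was 51.4 in muscle and 42.2 in kidney, and a gene named SLC6A13 (Pjo06908) 27.9 and 27.0. Without these genes, a choice made after their values were seen, the list summed to 771 in kidney and 55.4 in muscle. This LRP2 gene itself meets the rule, given below, for genes high in muscle and kidney together, with a ratio of 9.29.

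The kidney share was mostly lower for the more abundant genes, with piwil1 as an exception. It was lowest for zar1, followed by LHX8 at 65.9%, BMP15 at 70.9%, DDX4 at 74.0%, wee2 at 77.8%, dazl at 83.4%, piwil1 at 83.9% and GDF9 at 88.7%, with Nobox and FIGLA at the top. Across the 11 detected genes the Spearman correlation of this share with the mean FPKM of muscle and kidney was -0.85. The points share both libraries and the share is built from the same values, so the correlation is a description. For the 40 egg coat genes the correlation was -0.51. For all 539 genes that the rule given below calls high in muscle and kidney together, it was -0.59. The median kidney share of those genes was 95.2% at a mean FPKM from 10 to 20 and 59.9% at 500 or more. The 539 genes were picked by the same muscle and kidney pattern. They include 8 of the oocyte and germ line genes and 27 egg coat genes. The rule's minimum of 10 in both libraries also keeps the 2 levels close where the mean is near 10. The 95.2% is therefore partly set by the rule. Whether the trend is particular to oocyte and germ line genes was not tested, as no genes chosen apart from this pattern were examined.

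**Figure D3:**
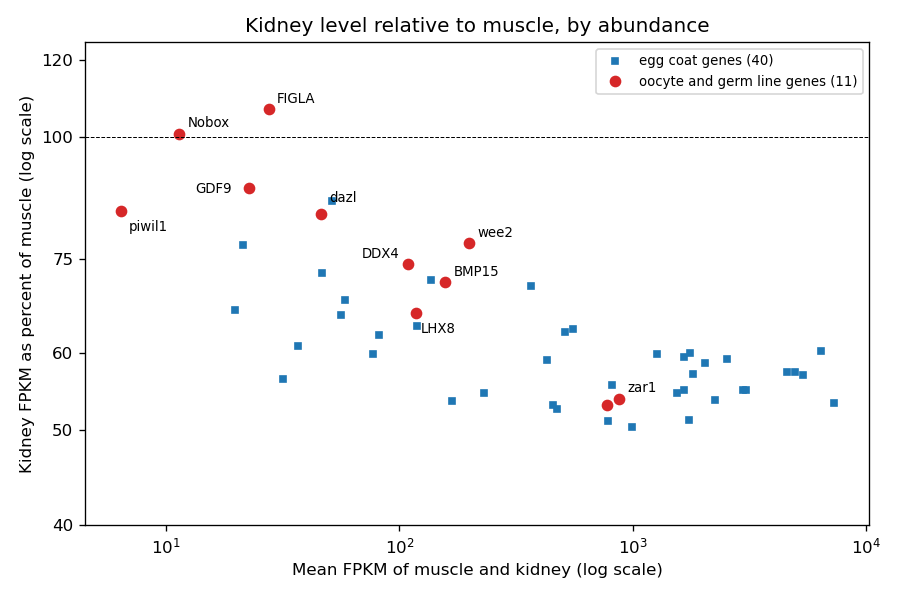
Kidney FPKM as a percent of muscle FPKM against the mean FPKM of both libraries (both axes log), for 11 oocyte and germ line genes (red) and 40 egg coat genes (blue). The dashed line marks equal levels; most points go down to the right, from FIGLA at 107% to zar1 near 54%, while piwil1, the least abundant, is at 83.9%.

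By the rule that muscle and kidney both reach 10 and exceed every other library at least 5-fold, on the FPKM + 1 scale, 8 of the 12 genes were called, against 2.55% of all detected genes. Both zar1 genes missed the limit, with ratios of kidney over fin of 4.62 and 4.71, and BMP15 was the closest inside it at 5.32. The zar1 levels in fin, 11.6% and 11.2% of muscle, were below the 12.9% of BMP15. Their kidney levels, 53.8% and 53.1% of muscle, were the lowest of the detected genes. The largest ratio was that of GDF9, 8.18. piwil1 missed both the minimum of 10 and the 5-fold limit, with a ratio of 3.64, and the second LHX8 gene was not detected. The rule rests on the scaling: after median-of-ratios scaling none of the 12 genes was called and only 2 of all genes in the table were, since that scaling lowers kidney and raises the library labelled spleen, which left ratios between 2.25 and 3.71 for the 10 abundant genes. With kidney left aside, a second rule asked muscle alone for an FPKM of 10 and the 5-fold limit over the other 5 libraries. It called 10 of the 12 genes and 5.40% of all detected genes as deposited. After median-of-ratios scaling 5 of the 12 were called, both zar1 genes, BMP15, LHX8 and dazl. That scaling left 398 of all genes with this call, against 1142 as deposited. The median log2 ratio of muscle over the highest of these 5 libraries was 3.10 over the 11 detected genes and -0.87 over all detected genes, as deposited, and 2.25 for the 11 after that scaling.

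Other oocyte and germ line genes, in lists made with earlier results of these data known, mostly showed the same steps. Of 24 names of germ plasm and the piRNA pathway, which guards the germ line against transposons, 18 were found as 21 genes. Of the 20 detected, 17 were highest in muscle, 1 in kidney, 1 in heart and 1 in gill. For all detected genes the share highest in muscle was 25.6%. GTSF1 (Pjo22808), a partner of PIWI proteins, was 461 in muscle, 280.0 in kidney and 0.06 in gill. henmt1 (Pjo20233), which methylates piRNA ends, was 96.7 in muscle and 73.3 in kidney. NANOS3 (Pjo00186), a germ cell regulator of translation, was 62.5 and 31.5, and the tudor gene tdrd6 (Pjo20286) 44.5 and 31.1. Among the exceptions, Tdrkh (Pjo12460), a tudor gene of the piRNA pathway, was 16.7 in kidney, 14.3 in muscle, 7.40 in fin and 5.55 in heart. A nanos1 gene (Pjo14609) was highest in gill at 5.40 and tdrd7b (Pjo07538) in heart at 2.57, while tdrd7a (Pjo00938) was 30.7 in muscle and 0.55 in heart.

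The list of other oocyte and maternal factors found 9 genes for 7 of 25 names. Of the 8 detected, 6 were highest in muscle, 1 in kidney and 1 in gill, beside 25.6% of all detected genes highest in muscle. Lsm14b (Pjo23392), a protein of stored messenger RNA, was 160.0 in muscle, 119 in kidney and 0.18 in gill. The gene buc (Pjo01733), bucky ball, the organizer of germ plasm in zebrafish, was 102 in muscle, 80.0 in kidney and 0.94 in gill. MOS (Pjo15168), a kinase of meiotic arrest, was 76.7 in muscle and 50.7 in kidney. The most abundant gene of the list did not share the pattern: rbpms2a (Pjo24954), an RNA-binding gene that is also known from heart and smooth muscle, was 356 in gill, 247 in heart and 123 in muscle. Nor did a second rbpms2a gene (Pjo07632), 1 of the 6 highest in muscle, at 31.2 there and 30.2 in heart. Heart was the highest library of both after median-of-ratios scaling. fbxo43 (Pjo15803), an inhibitor of the anaphase complex, was the gene highest in kidney, at 75.7 against 68.0 in muscle, an order that the same scaling turns.

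Genes of meiotic chromosomes were less abundant. The list of 30 names found 27 genes, of which 16 reached an FPKM of 1, and 12 of these were highest in muscle, 3 in kidney and 1 in heart. Muscle was highest for 25.6% and kidney for 17.0% of all detected genes. mei4 (Pjo20036), which acts in the making of meiotic breaks, was 71.8 in muscle and 49.6 in kidney. terb2 (Pjo07883), a telomere attachment gene, was 22.7 and 18.5, the cohesin gene RAD21L1 (Pjo08661) 22.5 and 18.8, and Syce2 (Pjo02894), of the synaptonemal complex, 14.2 and 7.82. Unlike the oocyte genes, terb2 was also 8.01 in the library labelled spleen and 5.17 in liver, 35.2% and 22.7% of muscle. Liver was its highest library after median-of-ratios scaling. Other genes of the list also left the steps. mei4 was 8.93 in the library labelled spleen and 8.09 in fin. Smc1b (Pjo24769) was at 30.2% of muscle in heart, and sycp2l (Pjo24053) at 71.3% in gill. RAD21L1 kept the library order of zar1. The recombinase gene Dmc1 (Pjo12714) was at most 0.12 and SYCP1 (Pjo07013), the transverse filament gene, at most 0.15 in any library.

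The follicle cell and steroid list, which holds the somatic partners of the oocyte, was spread over the libraries. Of its 27 genes 22 were detected, and 9 of these were highest in gill, 5 in muscle, 3 in kidney, 3 in fin, 1 in heart and 1 in liver. The 5 in muscle are 22.7% of the detected genes of the list, against 25.6% of all detected genes, for which the gill share was 23.1%. INHA (Pjo06503), the inhibin alpha subunit, was 23.4 in muscle, 12.8 in kidney and 3.30 in fin, the one gene of the list at 10 or more in muscle. cyp19a1 (Pjo24979), the aromatase, was 18.5 in fin, 0.31 in muscle and listed at 0 in kidney, and rspo1 (Pjo16191), a signal of ovary development in mammals, was 18.2 in fin. INHBB (Pjo10243), an activin subunit, was 17.8 in gill and 3.10 in muscle. FSHR (Pjo12628), the receptor of follicle stimulating hormone, was at most 0.21 in any library. The summed FPKM of the list was 58.9 in muscle, 44.0 in kidney, 69.4 in fin, 84.1 in gill and between 15.4 and 18.7 in the other 3.

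The testis and sperm list found 15 genes for 14 of 35 names, and 10 were detected. Of these 6 were highest in muscle, 1 in kidney, 2 in fin and 1 in gill, and all stayed below 20. The share of all detected genes highest in muscle was 25.6%. Adad1 (Pjo14652), a gene of male germ cells in mouse, was 16.0 in muscle and 13.3 in kidney. ODF2 (Pjo08952), which centrosomes also use, was 14.6 and 13.0, Spag6 (Pjo23942), of motile cilia and sperm tails, 14.0 and 10.8, and SPATA4 (Pjo14350) 13.5 and 9.49. dmrt1 (Pjo05270), a testis regulator, was at most 0.46, and CATSPER1 (Pjo20703), a sperm channel, was 0.09 in muscle and listed at 0 elsewhere.

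The summed hepatocyte list was 92861 in the library labelled spleen and 99399 in liver, and at most 822 in the others. Within it vtg1 (Pjo21814), the yolk protein precursor that liver makes for the oocyte, was 47063 in liver, 30655 in the library labelled spleen and at most 1.24 elsewhere. The lipid carrier gene APOC1 (Pjo16447) was 24903 in the library labelled spleen, and the iron carrier gene tf (Pjo01531) was 10201 there and 8409 in liver. All 15 genes of the list were detected. Of these, 6 were highest in the library labelled spleen, against 943 of all 21151 detected genes, and 4 in liver, against 316. The rest of the list was highest in kidney for 2 genes, in gill for 2 and in muscle for 1. Among the exceptions, a cyp2k1 gene (Pjo02840) was 57.6 in kidney, with a listed value of 0 for liver and for the library labelled spleen. The yolk precursor and the oocyte genes were highest in different libraries.

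**Figure D4:**
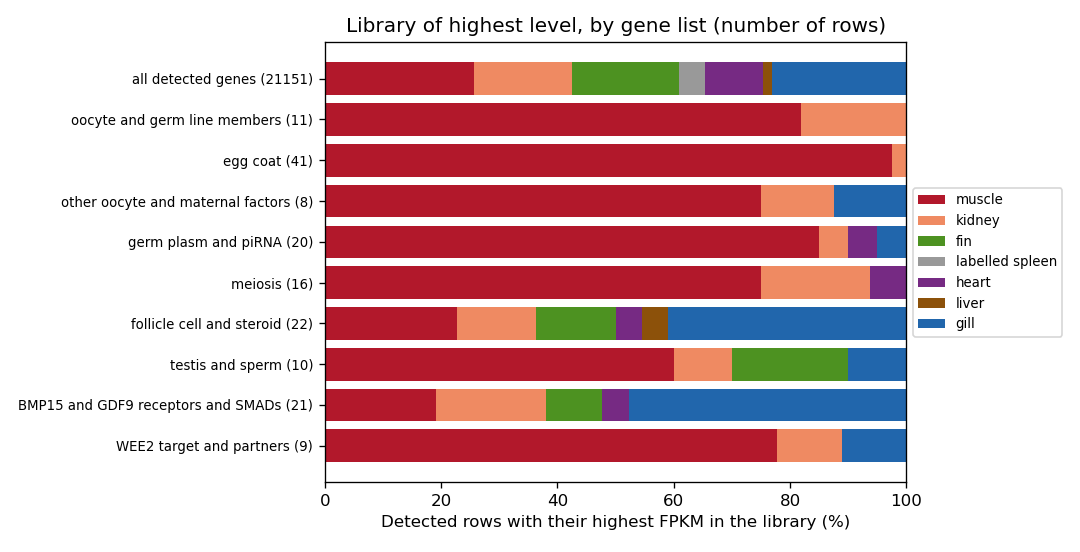
Percent of the detected genes of each list (number in brackets) whose highest FPKM was in each of the 7 libraries, with all detected genes in the top bar. The lists of oocyte, egg coat, germ plasm and meiosis genes are mostly highest in muscle. So are the WEE2 target and partner list (7 of 9) and the testis and sperm list (6 of 10). The follicle cell list and the receptors and SMADs of BMP15 and GDF9 have their largest share in gill.

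The genes most like the oocyte and germ line genes were sought by the Pearson correlation of log2(FPKM + 1) over the 7 libraries with the mean profile of the 10 abundant ones. Of 10729 named genes at an FPKM of 10 or more in some library, 139 had a correlation over 0.99. The first was med1 (Pjo24159), named for a Mediator subunit, at 97.8 in muscle, 74.5 in kidney, 9.26 in fin and 0.09 in gill. Then came Sybu (Pjo16117), syntabulin, which carries dorsal determinants in zebrafish eggs, at 111 in muscle and 96.1 in kidney, and a gene named VgR (Pjo05998) after an insect vitellogenin receptor, at 110.1 and 75.1. The others were CTSL (Pjo05725), a cathepsin, Tmprss9 (Pjo04555), a membrane protease, mmcm6 (Pjo02229), a maternal replication factor of Xenopus, Fyb1 (Pjo01246) and 3 genes named ZP3 (Pjo16053, Pjo04922 and Pjo00357). Their levels in muscle were between 96.5 and 159. The 10 abundant genes themselves had correlations with their mean profile between 0.939 and 0.9984, and piwil1 had 0.972. All of these were below the 0.9990 of the tenth gene found. The ranking thus names genes close to the mean profile, not genes more alike to each member. The correlation runs over 7 points and depends on the pseudocount: with 0.1 in place of 1, none of these 10 genes was among the first 10.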

How the data were processed

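RNA from 7 tissues, 1 library each, was extracted with TRIzol and made into libraries with a Vazyme kit for an MGI sequencer, per the labels' protocols. The submitters' processing notes name HISAT2 2.2.1 and RSEM 1.3.3; genome build and annotation: not given in the sources used here. Deposited values are FPKM to 2 decimals, in a single table without read totals. RSEM divides reads between similar genes, so copies are uncertain, and an FPKM is a share of its library.

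Genes were matched in lower case, with an optional a or b and a copy number after a separator; 6 genes DDX40 to DDX49 were not taken as DDX4. Members and lists were chosen with earlier results of these data known. Detected means an FPKM of at least 1. No test was run, with 1 library per tissue. Folds used a pseudocount of 1. Named genes were all members, the 4 most abundant of each list and the 10 most alike; other genes, such as cdk1, Pkmyt1, Tdrkh, fbxo43, LRP2, a second SLC6A13, nanos1, tdrd7a, tdrd7b, Dmc1, SYCP1, FSHR, dmrt1 and CATSPER1, were chosen after their values were seen. Alternatives were other pseudocounts, limits and scalings (17448 genes in the size factors), 1 gene per name and libraries left out. Rules were tested on simulated data. Tools were pandas 2.3.3, numpy 2.4.6, matplotlib 3.10.9 and scipy 1.17.1 under Python 3.11.15. No sequence or genome position was used here.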

Additional observations from a re-analysis of the deposited data

How the results depend on the processing

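No paired analysis was possible because each tissue has 1 library and no test was run. Medians here are over the 11 detected genes, except where an alternative changes which genes are taken. The 4 results on the oocyte and germ line genes (the count highest in muscle, the count high in muscle and kidney together, and the median log2 ratios of muscle over kidney and over the highest of the other 5 libraries) were recomputed 33 times in all. In 28 of these a count stayed within 1.5 times, or a median within 1.5-fold, of the value as reported, and no median changed sign. Some of the 28 could not move a count, given the values above, and are no separate check. For the count highest in muscle these were a detection minimum of 0.1 and no filter. For the count high in both they were a minimum of 1 and leaving out the library labelled spleen. The count of 8 genes high in muscle and kidney together was 3 with a pseudocount of 5 and 0 with a 10-fold limit. It was also 0 after median-of-ratios scaling. Among the 10 abundant genes, the largest ratio was 8.18 as deposited and 3.71 after that scaling. The median log2 ratio of muscle over the highest of the other 5, 3.10 as reported, was 2.25 after median-of-ratios scaling and 3.88 without fin. The count highest in muscle, 9, was 11 after either scaling and 11 without kidney. The count without kidney was fixed in advance, since all 11 detected genes were higher in muscle than in the other 5 libraries. After median-of-ratios scaling, tried on the lists after seeing the data, the other oocyte factor, germ plasm, meiosis and egg coat lists had as many genes highest in muscle as before. They were not always the same genes. The share of all detected genes highest in muscle after that scaling was not counted, so these equal counts have no background to be read against. Heart was then highest for 2 of the other oocyte and maternal factors, and liver for 1 germ plasm and 1 meiosis gene. Before that scaling, none of the oocyte factors was highest in heart, and none of the germ plasm or meiosis genes in liver. Without both zar1 genes, a choice made after seeing the data, the count highest in muscle was 7 and the count high in both libraries 8. These counts follow from the values above, as both zar1 genes were highest in muscle and neither was called, and are no separate check. Of the 10 most alike genes, 7 stayed among the first 10 without kidney, 0 with a pseudocount of 0.1, and all 10 by Spearman correlation, where 268 genes tied at 1. Depth is unknown for every library.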

Other observations

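A locus outside the named annotation has no gene name but carries the KEGG orthology name GDF9. Its FPKM was 14.2 in heart, 0.37 in fin, 0.18 in gill, 0.16 in kidney, 0.11 in the library labelled spleen, 0.06 in liver and 0.04 in muscle, an order of libraries unlike that of the gene named GDF9. It was found through this annotation after the data were seen.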
